A study of Mus musculus with 12 samples.

Results

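The genes described here encode the proteins of the cytosolic ribosome. They were chosen by symbol, as the rows named Rpl or Rps with a number and the stalk and laminin-receptor genes Rplp0, Rplp1, Rplp2 and Rpsa, with processed pseudogene rows and the Rps6k kinases left out. Of 56953 rows, 90 matched, and 84 reached 1 CPM (counts scaled to the library total) in at least 3 of 12 libraries. These 84 members comprise 50 genes of the large subunit and 34 of the small subunit, and they lie on 19 chromosomes. Messenger RNA was sequenced from whole mouse spinal cord in 4 groups of 3 animals each. The cKO animals came from crosses of Ddx20 flox/flox mice with Plp-CreER mice and were taken 4 weeks or 4.5 weeks after tamoxifen, and controls were taken at the same times. The labels name the control animals only Control, so which alleles they carried, and the ages of all animals, are not known here. Plp-CreER drives recombination chiefly in oligodendrocyte-lineage cells, while every cell of the cord contributed RNA.

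A cytosolic ribosome joins a small subunit, which reads the messenger RNA, to a large subunit, which forms the peptide bond. Each subunit holds ribosomal RNA and a fixed set of proteins, nearly all present as a single copy, so their genes are usually expressed together. Most ribosomal protein messages begin with a C followed by a run of pyrimidines, the 5′ terminal oligopyrimidine or TOP motif, through which the mTOR pathway and Larp1 control their translation. When ribosome assembly fails, Rpl5 and Rpl11 bind Mdm2 and stabilise p53, and heterozygous loss of genes such as RPS19 causes Diamond-Blackfan anaemia in people.

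The start of the gene carries the TOP motif, so the sequence around it is shown for members whose levels are described below. Each stretch runs from 25 bases before to 25 bases from the annotated start (GRCm38.p6, RefSeq), 5′ to 3′ on the gene's strand. Capitals mark the longest run of C or T that touches the window from 5 bases before to 5 bases after the start. A marked run can lie wholly before or wholly after the start, so it need not be a TOP motif. The deposited counts were made on another build, mm39, and no coordinate was carried between the builds. For a gene with several annotated starts, the one with the longest run is shown.
Rpl27a (chr7:109519170-109519219, plus strand): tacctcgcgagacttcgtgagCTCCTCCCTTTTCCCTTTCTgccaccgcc
Rpl7a (chr2:26910782-26910831, plus strand): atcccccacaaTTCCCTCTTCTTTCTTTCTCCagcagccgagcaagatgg
Rpl38 (chr11:114668555-114668604, plus strand): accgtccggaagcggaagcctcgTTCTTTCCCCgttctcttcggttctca
Rpl10 (chrX:74270791-74270840, plus strand): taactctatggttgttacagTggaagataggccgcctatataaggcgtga
Rplp0 (chr5:115559442-115559491, plus strand): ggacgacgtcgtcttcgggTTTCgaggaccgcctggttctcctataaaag
Rps12 (chr10:23787185-23787234, minus strand): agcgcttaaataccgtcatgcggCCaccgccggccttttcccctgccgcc
Rps19 (chr7:24884567-24884616, plus strand): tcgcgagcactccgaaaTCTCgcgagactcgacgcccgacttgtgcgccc
Rps27l (chr9:66946061-66946110, plus strand): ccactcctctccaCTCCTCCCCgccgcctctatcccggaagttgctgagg
Rps27 (chr3:90213624-90213673, minus strand): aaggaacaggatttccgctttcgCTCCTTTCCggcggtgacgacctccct
Rpl22l1 (chr3:28805483-28805532, plus strand): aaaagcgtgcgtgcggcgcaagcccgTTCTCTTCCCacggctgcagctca
Rpl22 (chr4:152324411-152324460, plus strand): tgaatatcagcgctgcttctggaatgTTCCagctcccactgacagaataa

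Of the 84 members, 61 had an entry in the RefSeq promoter table. A pyrimidine run of 7 or more bases touched the window around the start in 28 of those 61 (45.9%), against 15.7% of all 27025 genes in the table. Such a run can lie wholly before the annotated start, as that of Rps27l does, and so outside the message. The runs of Rpl27a and Rpl7a, both proteins of the large subunit, were 20 and 21 bases long, whereas Rpl10 had a run of 1 base. A run of 7 or more purines at the same place, on the gene's own strand, was present in 6.56% of the members and 17% of all genes. The letters CTTTCC stood within 20 bases of the start in 16.4% of the members and 2.3% of all genes, and their reverse complement GGAAAG in 0% and 2.03%. The large subunit had such a pyrimidine run in 48.6% of 37 genes and the small subunit in 41.7% of 24 genes. The medians of members with and without a run of 7 bases lay close together: the median log2 fold change of cKO minus control was 0.47 with the run and 0.45 without it at 4 weeks, and 1.04 with it and 0.93 without it at 4.5 weeks. Among the members without an entry were Rpl17, Rpl21, Rpl23a, Rpl29, Rpl3, Rpl30, Rpl32, Rpl36, Rpl6l, Rpl7, Rpl8, Rplp1, Rps14, Rps20, Rps27a, Rps29, Rps3a2 and Rps4l.

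The 12 libraries held 33104560 to 47677267 counts and 23282 to 24999 detected genes, and 19278 genes were tested, all 84 members among them. The transcript of Ddx20, a helicase gene, stood at 10.2, 11.1 and 9.90 CPM in cKO and 11.01, 9.78 and 11.1 CPM in control libraries at 4 weeks, and at 12.4, 11.1 and 13.3 CPM in cKO and 9.16, 10.6 and 9.72 CPM in control libraries at 4.5 weeks. Ddx20 was thus called higher in cKO at 4.5 weeks (log2 fold change 0.33, adjusted p 0.0134), against the direction of a deletion, and was not called at 4 weeks (-0.03, adjusted p 0.841). The call at 4.5 weeks was lost without control library 1 (0.27) or cKO library 3 (0.26) of that time. The deleted part of the gene is not known here, so its counts do not check the labels, and cKO below means the libraries labelled so. A library was called female where counts of the X-inactivation transcript Xist exceeded the sum of the Y-linked genes Ddx3y, Uty, Kdm5d and Eif2s3y. By this rule, 2 of the 3 cKO libraries at 4 weeks, none of the 3 controls at 4 weeks and all 6 libraries at 4.5 weeks were female. Control library 1 at 4.5 weeks held 173 CPM of 9 sensory ganglion markers, against 29.9 to 96.7 CPM in the other 11 libraries, and control library 2 at that time held 163 CPM of 7 skeletal muscle markers, against 2.12 to 40.1 CPM in the other 11. The tissue label was checked with 6 Hox genes of cord position, which summed to 133 to 272 CPM in all 12 libraries.

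The ribosomal protein genes took a larger share of the messenger RNA counts in cKO than in control cords at both times, and the large and the small subunit moved together. At 4 weeks the large subunit genes held 1.38%, 1.49% and 1.53% of all counts in cKO libraries and 1.07%, 1.05% and 0.928% in control libraries. The small subunit genes held 0.880%, 0.959% and 0.985% in cKO and 0.681%, 0.667% and 0.586% in control libraries. No cKO library overlapped a control library in either subunit, and the mean share in cKO was 1.44 times that in controls for the large subunit and 1.46 times for the small one. At 4.5 weeks the large subunit held 1.60%, 1.57% and 1.58% in cKO and 0.811%, 0.762% and 0.755% in control libraries, a ratio of means of 2.04. The small subunit then held 1.04%, 1.02% and 1.04% in cKO and 0.50%, 0.472% and 0.471% in control libraries, a ratio of 2.15. Both subunits were thus separated at this time too. These sums are given without a test, because the genes were chosen with results of these data known. In whole tissue, a change in the number of cells of a type and a change in RNA per cell cannot be told apart.

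The balance between the subunits moved little beside these changes. The log2 ratio of large to small subunit counts was 0.65, 0.64 and 0.63 in cKO and 0.65, 0.66 and 0.66 in control libraries at 4 weeks. It was 0.62, 0.63 and 0.60 in cKO and 0.70, 0.69 and 0.68 in control libraries at 4.5 weeks. The groups did not overlap at either time, with the lowest margin at 4 weeks, where the highest cKO value was 0.654 and the lowest control value 0.655. The plot of count shares by library shows the shares and this ratio.

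**Figure D1:**
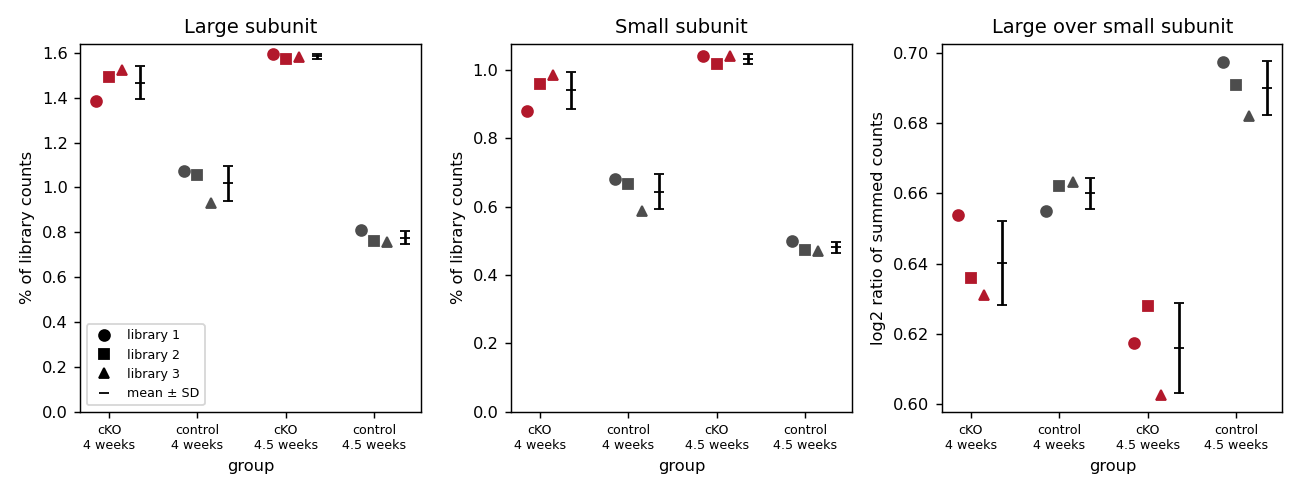
Share of library counts held by the 50 large subunit genes and the 34 small subunit genes (left and middle, percent), and the log2 ratio of the sums (right), for each library, with the mean and SD of 3 libraries per group. In both subunits the cKO libraries lie above the controls of their time, and the ratio is lowest in the cKO libraries of 4.5 weeks (0.60 to 0.63).

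At 4 weeks, 81 of the 84 members were higher in cKO cords (edgeR's quasi-likelihood test, adjusted p below 0.05), 0 were lower and 3 were not called, against 20.1% of all genes tested called higher and 17.2% called lower, 37.2% in either direction. At an unadjusted p under 0.05, 82 were higher and 0 lower; DESeq2 called 81 higher and 0 lower and limma-voom 82 and 0. The members' median log2 fold change was 0.46, 0.45 in the large and 0.46 in the small subunit, beside 0.01 over all genes tested. All 3 cKO libraries lay above all 3 controls for 82 members, as they did for 24.1% of all genes, and below them for 0 members, against 23.1% of all genes. The changes were moderate, and 13 members passed a 1.5-fold difference. The 3 controls of this time were male and cKO libraries 1 and 2 female, so sex was not balanced between these groups. Over all 19278 genes, 3866 were called higher and 3313 lower at 4 weeks, and 2634 and 1914 with a sex term. The members' counts with that term are not given here for this time.

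Rps27l stood apart from the other members at 4 weeks. This paralog of Rps27 is a known transcriptional target of p53. It had 49.3, 62.7 and 64.0 CPM in cKO and 14.4, 14.1 and 14.5 CPM in control libraries. Every cKO value was more than 3 times every control value, and the log2 fold change was 2.03 ± 0.10 (SE, adjusted p 3.67e-08). Rps19 was also among the largest changes. It encodes a head protein of the small subunit and is the gene most often mutated in Diamond-Blackfan anaemia. Its levels were 264, 291 and 294 CPM in cKO and 146, 136 and 120 CPM in control libraries, without overlap, and the log2 fold change was 1.08 ± 0.07 (adjusted p 3.75e-07). The largest change in the large subunit was that of Rpl41, a very short basic peptide, with 377, 423 and 437 CPM in cKO and 271, 267 and 226 CPM in control libraries (log2 fold change 0.69 ± 0.09, adjusted p 7.15e-05). Its groups were separated too.

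The smallest changes called at 4 weeks were those of Rpl7a (log2 fold change 0.21, adjusted p 0.0203) and Rps15 (0.22, adjusted p 0.0248). Rps15, near the decoding site, had 339, 333 and 354 CPM in cKO and 314, 307 and 261 CPM in control libraries. Its call was lost without control library 3 (log2 fold change 0.14) and without cKO library 3 (0.19), and with a trend with transcript length taken out of each library its value was -0.01. The 3 members that missed the threshold were Rpl7l1 (0.06, adjusted p 0.423), Rpl22l1 (0.08, adjusted p 0.363) and Rps3a2 (0.28, adjusted p 0.0545), which are all copies or paralogs of other members.

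At 4.5 weeks, 82 of 84 members were higher in cKO cords, 0 were lower and 2 were not called, where 33.3% of all genes were called higher and 32.6% lower, 65.9% in either direction. At an unadjusted p under 0.05 the counts were also 82 and 0, as they were with DESeq2 and with limma-voom. The median log2 fold change was 1.01 over the members, 0.95 in the large and 1.09 in the small subunit, beside 0.02 over all genes tested. The groups did not overlap for 83 members, and all 3 cKO libraries lay above the 3 controls for 36.8% of all genes and below them for 35.6%. A 1.5-fold difference was passed by 81 members and a log2 fold change of 1 by 43.

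Behind Rps27l, with 43.5, 44.8 and 47.1 CPM in cKO and 12.7, 11.2 and 10.4 CPM in control libraries (1.98 ± 0.10, adjusted p 4.61e-09), the largest changes at 4.5 weeks were in the large subunit. Rplp0, the protein on which the stalk is built, had 564, 548 and 570 CPM in cKO and 205, 184 and 198 CPM in control libraries, a log2 fold change of 1.52 ± 0.08 (adjusted p 4.23e-09). Rpl10, which joins the large subunit late in its assembly, had 560, 529 and 544 CPM in cKO and 206, 190 and 188 CPM in control libraries (1.48 ± 0.06, adjusted p 5.69e-10). In both genes the groups were widely separated. Rpl10a (1.45 ± 0.07), Rpl12 (1.44 ± 0.07), which lies at the base of the stalk, and Rpl32 (1.43 ± 0.07) followed, and Rps12 and Rps19 led the other small subunit genes with 1.42 each.

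The members that were not called at 4.5 weeks were Rpl22l1 and Rps4l. Rpl22l1 had 37.6, 36.9 and 38.2 CPM in cKO and 34.0, 36.6 and 33.9 CPM in control libraries (0.11 ± 0.07, adjusted p 0.154). Rps4l had 27.0, 23.1 and 30.4 CPM in cKO and 22.1, 23.8 and 28.3 CPM in control libraries (0.12 ± 0.15, adjusted p 0.522), so that its groups overlapped. In all, 80 members were higher at both times, 1 at 4 weeks alone (Rps4l), 2 at 4.5 weeks alone and 1, Rpl22l1, at neither. The map of levels by library shows the members in all 12 libraries.

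**Figure D2:**
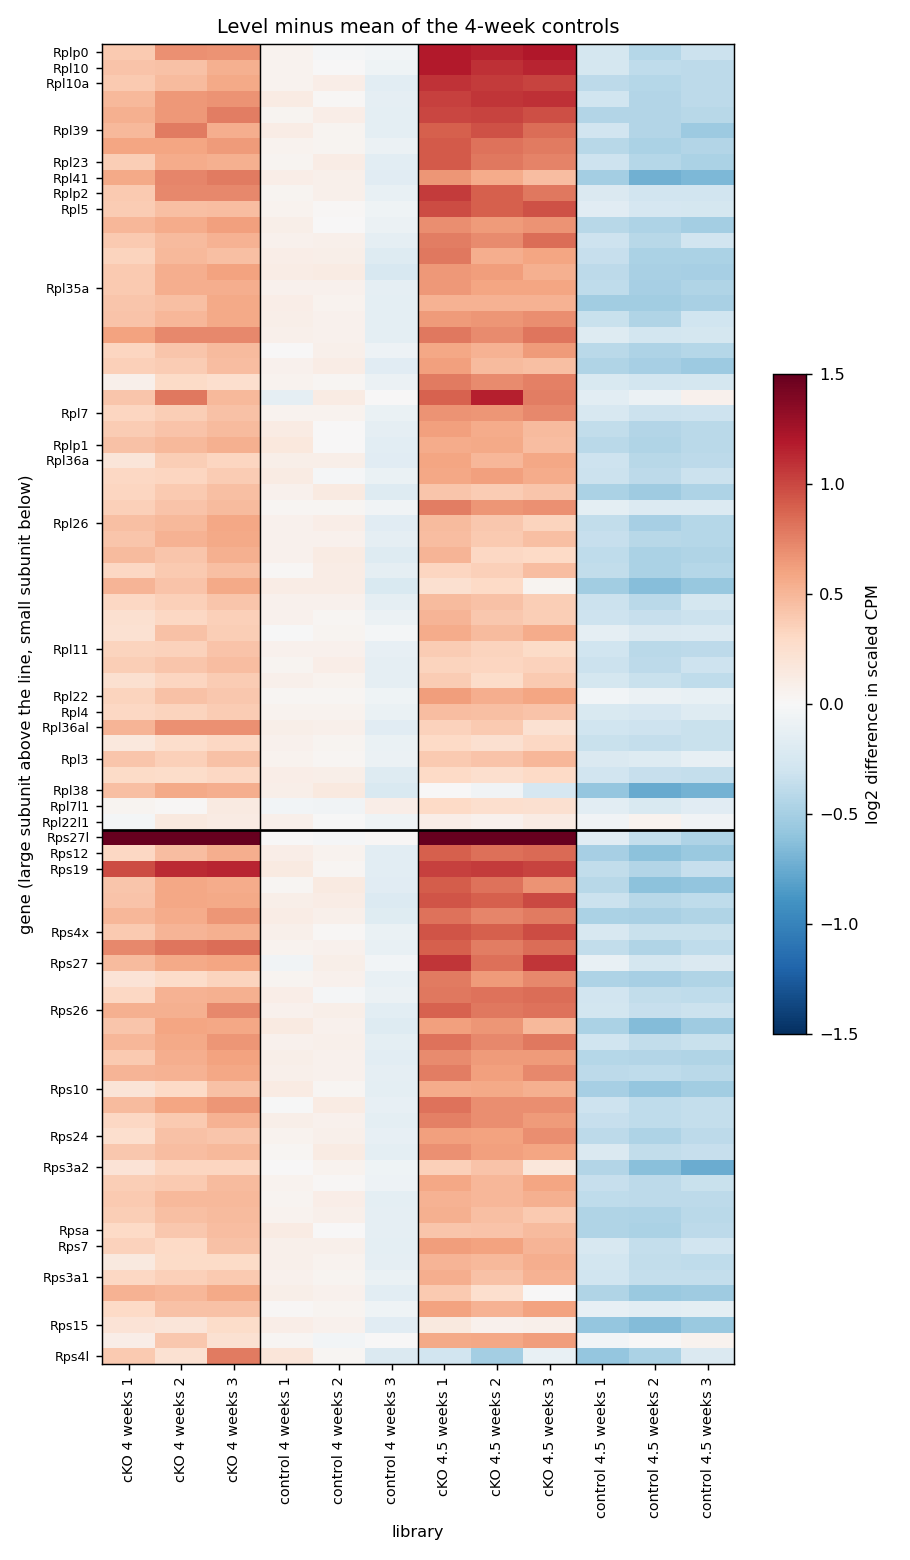
Level of each of the 84 members (rows, of which some of the genes named in the text are labelled) in each of the 12 libraries (columns), as the log2 difference in scaled CPM from the mean of the 3 controls at 4 weeks. Colours end at 1.5 in either direction, which Rps27l passes in the cKO libraries, and rows are ordered within each subunit by the log2 fold change at 4.5 weeks. Almost every row is red in the cKO libraries and blue in the controls of 4.5 weeks.

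The effect of the cKO was larger at 4.5 weeks than at 4 weeks for 82 of the 84 members, and the difference of the effects was called for 75, all in that direction, 0 in the other, with 9 not called. Over all genes, 18.7% were called in that direction and 21.9% in the opposite one, 40.7% in all. At an unadjusted p under 0.05 there were 77 and 0 members, and DESeq2 and limma-voom each called 76 and 0. The median difference in log2 fold change was 0.52 over the members, 0.51 in the large and 0.54 in the small subunit, beside -0.03 over all genes. It was largest for Rpl10 (1.02 ± 0.08, adjusted p 1.53e-06), Rps12 (0.98, adjusted p 1.45e-05), Rpl10a (0.97, adjusted p 7.91e-06) and Rplp0 (0.93, adjusted p 2.48e-05). With a sex term in the fit 63 members were called larger and 1 smaller at 4.5 weeks. Over all 19278 genes, 2859 and 3303 were called in these directions in that fit. The member called smaller was Rps4l, at -0.66.

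Several members had similar changes at both times. Rps27l differed by -0.05 ± 0.14 between the times (adjusted p 0.796), Rpl36al by 0.01 ± 0.11 (adjusted p 0.935) and Rpl38, a small protein of the large subunit, by 0.07 ± 0.13 (adjusted p 0.708). The other members without a call were Rpl22l1 (0.03), Rps21 (0.22), Rpl3 (0.22), Rpl37 (0.28), Rpl6l (0.43) and Rps4l (-0.36). Rpl3 (adjusted p 0.052) passed the threshold with DESeq2, with limma-voom and with control library 3 or cKO library 1 of 4 weeks left out. A missed threshold does not show equal effects. Across the 84 members the effects at the 2 times had a Spearman rho of 0.61, which is given as a description because all members were measured in the same libraries.

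**Figure D3:**
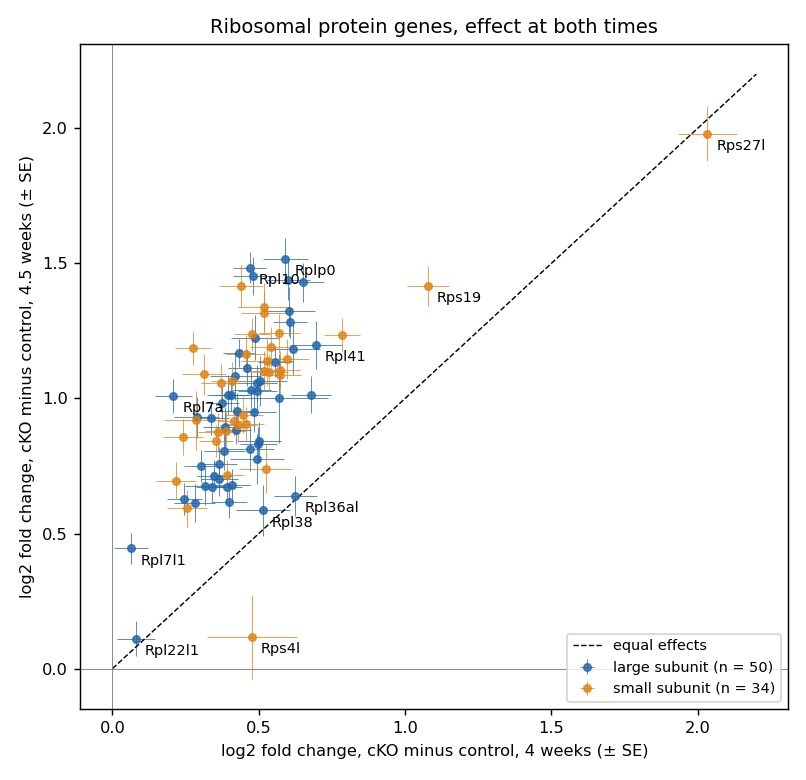
Log2 fold change of cKO minus control at 4 weeks (horizontal axis) and 4.5 weeks (vertical axis) for the 50 large and 34 small subunit genes, with bars of 1 SE and a dashed line of equal effects. Most genes lie above the line, Rps27l (2.03 and 1.98) lies close to it and Rps4l (0.48 and 0.12) lies below it.

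By the medians over the members, more of the difference of the effects lay in the controls than in the cKO libraries. At 4.5 relative to 4 weeks the median log2 value was -0.38 in controls and 0.16 in cKO. The ribosomal protein transcripts of the controls were thus lower at the later time. Of the 84 members, 75 were lower and 0 higher in controls at 4.5 weeks, against 7.21% of all genes called lower and 9.53% called higher, 16.7% in all. These controls are the same libraries against which the cKO effects were measured. At an unadjusted p under 0.05 the counts were 80 lower and 0 higher, with DESeq2 79 and 0 and with limma-voom 74 and 0. The median log2 fold change was -0.38, -0.37 in the large and -0.39 in the small subunit, beside 0.00 over all genes, and all 3 later controls lay below all 3 earlier ones for 80 members and for 17.4% of all genes, and above them for 0 members and for 19.8% of all genes. Rpl38 fell most, with 96.6, 85.7 and 89.0 CPM in controls at 4.5 weeks and 154, 160 and 124 CPM in controls at 4 weeks (-0.69 ± 0.09, adjusted p 0.00181). Rpl41 (-0.64), Rps15 (-0.60) and Rps3a2 (-0.60) followed. Rps15a (0.00, adjusted p 0.99) and Rpl22l1 (-0.02, adjusted p 0.907) were at the other end. The controls at 4 weeks were all male and those at 4.5 weeks all female, so time and sex cannot be told apart between them. With a sex term, which rests on the cKO libraries of 4 weeks, 0 members and 0 of all genes were called in this comparison. With the transcript length trend removed 31 members were called lower, beside 464 of all 19278 genes. Without control libraries 1 and 2 of 4.5 weeks that group has 1 library, so no count of calls is given for it.

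Between the cKO groups the shift was smaller and mixed. Each member's change in cKO from the means of the same fit, which was not tested, had a median log2 value of 0.16 at 4.5 weeks relative to 4 weeks, beside -0.02 over all genes, and was above 0 for 68 members. The 3 later cKO libraries lay above the 3 earlier ones for 50 members and below them for 8, against 30.6% and 31.3% of all genes. Rpl10 was highest in this respect, with 560, 529 and 544 CPM at 4.5 weeks and 332, 336 and 357 CPM at 4 weeks. Rpl38 had 145, 140 and 122 CPM at 4.5 weeks and 199, 215 and 212 CPM at 4 weeks in cKO, so that it was lower at the later time in cKO as in control cords. Rps4l, Rps27l, Rpl36al, Rps21 and Rpl37 also had all 3 later cKO libraries below the 3 earlier ones.

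The paralogs were set against their partner genes as the log2 ratio of CPM in each library, which compares changes and not amounts of protein. Rps27l to Rps27 stood at -1.48, -1.23 and -1.22 in cKO and -2.74, -2.90 and -2.73 in control libraries at 4 weeks, and at -2.26, -1.97 and -2.14 in cKO and -2.85, -2.88 and -3.04 in control libraries at 4.5 weeks. The ratio was higher in every cKO library than in every control, by 1.48 at 4 weeks and 0.80 at 4.5 weeks. Rps27 itself, a zinc-finger protein of the small subunit, had a log2 fold change of 0.54 at 4 weeks and 1.19 at 4.5 weeks, which narrowed the ratio at 4.5 weeks while the change of Rps27l itself was 1.98. The ratios are given without a test, because the pairs were chosen with results of these data known.

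Both Rpl22l1 and Rpl7l1 stayed behind their partners. Rpl22 binds RNA in the large subunit, and its paralog Rpl22l1 can take its place there. The ratio of Rpl22l1 to Rpl22 was -2.05, -1.97 and -1.97 in cKO and -1.64, -1.73 and -1.68 in control libraries at 4 weeks, a difference of -0.31, and the difference at 4.5 weeks was -0.56. Rpl7l1 relative to Rpl7, also of the large subunit, differed by -0.31 and -0.54 at the 2 times. All cKO libraries lay below all controls of their time in both pairs. Rpl7l1 was itself higher in cKO at 4.5 weeks (0.44 ± 0.06, adjusted p 1.93e-05).

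Of the remaining pairs, that of Rpl36al lay on opposite sides of its controls at the 2 times. The ratio of Rpl36al to the X-linked Rpl36a was 0.26, 0.24 and 0.29 in cKO and -0.07, -0.09 and -0.06 in control libraries at 4 weeks, and -0.32, -0.18 and -0.43 in cKO and -0.06, 0.03 and -0.01 in control libraries at 4.5 weeks. It was thus above the controls at the first time (by 0.34) and below them at the second (by -0.29). The ratio of Rps4l to the X-linked Rps4x was -2.94, -3.21 and -2.69 in cKO and -2.82, -2.93 and -3.06 in control libraries at 4 weeks, with overlap and a difference of means of -0.01. At 4.5 weeks it was -4.16, -4.34 and -4.03 in cKO and -3.28, -3.08 and -2.82 in control libraries, a difference of -1.12 without overlap. The call of Rps4l at 4 weeks (log2 fold change 0.48, adjusted p 0.0267) was lost without cKO library 3 (0.30) and without control library 2 (0.48) or 3 (0.38). The plot of paralog ratios shows the libraries of each pair.

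**Figure D4:**
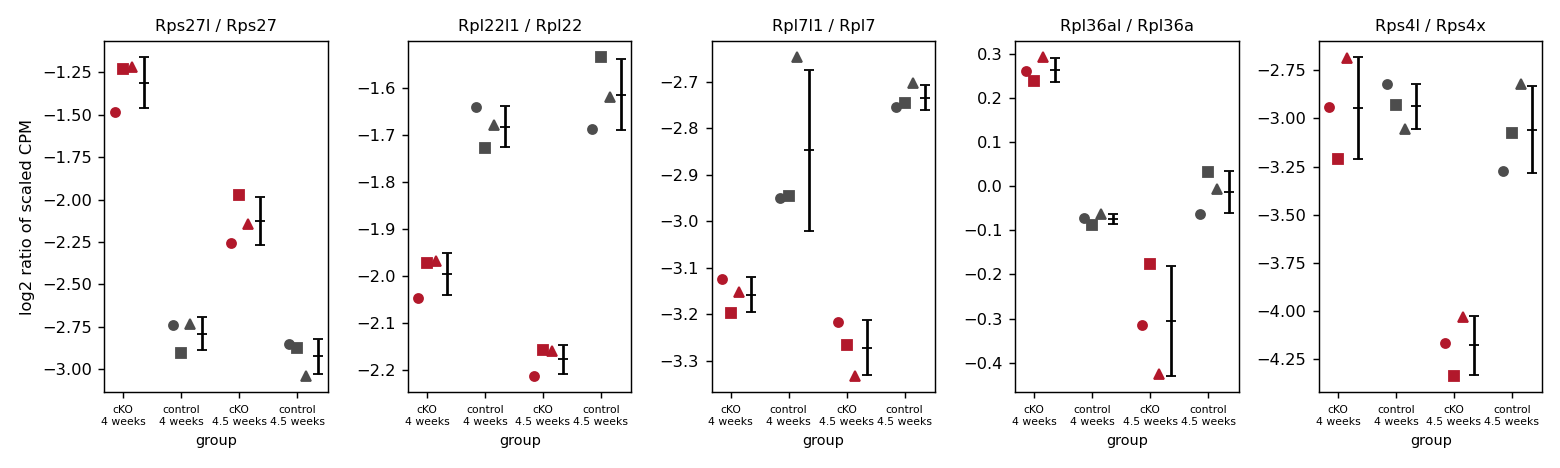
Log2 ratio of each paralog to its partner gene in scaled CPM, for each library (circle, square and triangle for libraries 1, 2 and 3), with the mean and SD of 3 libraries per group. In cKO libraries the ratio is higher at both times for Rps27l and lower at both times for Rpl22l1 and Rpl7l1, while Rpl36al lies on opposite sides of its controls at the 2 times.

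Among the rows that failed the CPM filter, Rpl3l, a paralog of Rpl3 used in striated muscle, came nearest. It reached 1.68 CPM in control library 2 of 4.5 weeks, the library with the skeletal muscle transcripts, and 0 to 0.587 CPM in the other 11. Rpl39l reached 0.573 CPM at most, Rps3a3 and Rpl32l stayed at or below 0.125 CPM, and Rpl10l and Rps12l1 had no count in any library. The members closest to the filter were Rpl6l, with 2.2 to 5.73 CPM before scaling, and Rps3a2, with 5.30 to 12.9 CPM. All 84 members in fact had at least 1 CPM in all 12 libraries.

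The 3 stalk genes, whose proteins recruit the translation factors, were higher in cKO at both times. Their log2 fold changes were 0.59 for Rplp0, 0.48 for Rplp1 and 0.62 for Rplp2 at 4 weeks and 1.52, 0.95 and 1.18 at 4.5 weeks. The 4 genes whose proteins are known to bind Mdm2 or p53 mRNA, Rpl5, Rpl11, Rpl23 and Rpl26, were also higher at both times, with 0.37 (Rpl11) to 0.50 (Rpl26) at 4 weeks and 0.70 (Rpl11) to 1.23 (Rpl23) at 4.5 weeks. Rpl5, which carries the 5S ribosomal RNA with Rpl11, had 457, 434 and 450 CPM in cKO and 206, 196 and 194 CPM in control libraries at 4.5 weeks, without overlap. Rpl11 had 298, 287 and 278 CPM in cKO and 185, 172 and 173 CPM in control libraries at that time. Of 7 genes mutated in Diamond-Blackfan anaemia in people, 7 were higher at each time. Apart from Rps19, these had log2 fold changes of 0.31 (Rps10) to 0.60 (Rps26) at 4 weeks and 0.88 (Rps7) to 1.15 (Rps26) at 4.5 weeks, with Rps24 (0.37 and 1.06) and Rpl35a (0.49 and 1.06) between. Nearly all members were higher, 81 of 84 at 4 weeks and 82 at 4.5 weeks, against 20.1% and 33.3% of all genes. The calls therefore do not set these families apart from the other members.

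Among the members with the most counts, Rpl4 and Rpl3, both core proteins of the large subunit, had log2 fold changes of 0.34 and 0.40 at 4 weeks and 0.67 and 0.62 at 4.5 weeks. Rpsa and Rps3a1 of the small subunit had 0.39 and 0.35 at 4 weeks and 0.88 and 0.84 at 4.5 weeks. The 4 X-linked members, Rpl10, Rpl36a, Rpl39 and Rps4x, had 0.47, 0.29, 0.60 and 0.48 at 4 weeks, a median of 0.47 beside 0.45 for the 80 autosomal members, and a median of 1.28 beside 0.99 at 4.5 weeks.

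Single libraries differed in the same way for most members. At 4 weeks, cKO library 1 was the lowest of its group for 73 of 84 members and cKO library 3 the highest for 64, and the members' median log2 distance from the control mean was 0.39, 0.45 and 0.52 in cKO libraries 1, 2 and 3. Control library 3 of 4 weeks was the lowest of its group for 79 members, with a median of -0.14, against 0.07 and 0.07 in control libraries 1 and 2. At 4.5 weeks the medians were 1.01, 0.97 and 0.98 in the 3 cKO libraries and 0.04, -0.03 and -0.01 in the 3 controls. The median coefficient of variation of a member over 3 libraries was 5.08% in cKO and 8.39% in controls at 4 weeks, and 3.40% in cKO and 3.16% in controls at 4.5 weeks. Leaving out any 1 library left 77 to 82 members higher at 4 weeks and 82 at 4.5 weeks, beside 3071 to 3998 and 5948 to 6615 of all genes.

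Reads of ribosomal protein genes are shared with many copies in the genome, and 59.5% to 72.6% of the members' values in a library were not exactly whole as deposited, with no tolerance allowed, against 3.25% to 3.81% of all values. In 17 members, 9 large and 8 small, the count was whole in every library. Of these 17, 16 were higher in cKO at 4 weeks, with a median log2 fold change of 0.43, and 16 at 4.5 weeks, with a median of 0.76. Rps27l, Rps15 and Rpl32 were among them. Pseudogene rows of the family summed to 138 to 151 CPM in cKO and 91.7 to 109 CPM in control libraries at 4 weeks, and to 136 to 141 CPM in cKO and 71.5 to 74.2 CPM in control libraries at 4.5 weeks. Of the 34 such rows tested, 10 were higher and 0 lower at 4 weeks and 22 and 0 at 4.5 weeks. The shares of all genes were 20.1% higher and 17.2% lower at 4 weeks, and 33.3% and 32.6% at 4.5 weeks. How reads were divided between these rows and the members was not tested.

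Transcripts of the members are short, with a median annotated length of 776 nucleotides, and the libraries differed by a trend with length. At the members this trend came to a log2 difference of 0.17 for cKO minus control at 4 weeks, 0.09 at 4.5 weeks and -0.20 between the controls. With the trend removed, 68 members were called higher at 4 weeks, with a median of 0.29, beside 3845 of all 19278 genes. At 4.5 weeks 82 members were called higher in that fit, with a median of 0.91, beside 6637 of all genes. Across the 84 members, length and log2 fold change had a Spearman rho of -0.28 at 4 weeks, -0.18 at 4.5 weeks and 0.37 between the controls, given as a description.

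Ribosomal proteins whose symbols fall outside the rule were also higher in cKO cords. Fau, which encodes the small subunit protein eS30 fused to a ubiquitin-like domain, had log2 fold changes of 0.60 and 1.31 at 4 and 4.5 weeks. Rack1, a scaffold on the head of the small subunit, had 228, 255 and 261 CPM in cKO and 168, 158 and 158 CPM in control libraries at 4 weeks, and 372, 370 and 385 CPM in cKO and 122, 119 and 126 CPM in control libraries at 4.5 weeks (log2 fold changes 0.62 and 1.62). Both genes were called at both times.

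Genes that make ribosomes had smaller median changes than the genes of their proteins, a difference that was not tested. The counts below stand beside 20.1% of all genes called higher and 17.2% lower at 4 weeks. At 4.5 weeks these shares were 33.3% and 32.6%. Of 36 ribosome biogenesis genes tested, 19 were higher and 1 lower at 4 weeks (median 0.22), and 12 were higher and 8 lower at 4.5 weeks (median 0.11). Npm1, a nucleolar chaperone, had log2 fold changes of 0.56 and 0.80, Ncl, the nucleolar protein nucleolin, 0.55 and 0.48, and Nop56, part of the machinery that methylates ribosomal RNA, 0.04 (adjusted p 0.574) and -0.65. Tsr2, a chaperone of Rps26 known from yeast and human work, was lower at both times (-0.18 and -0.69). The mitochondrial ribosome is a separate particle with its own proteins: of its 79 genes tested, 19 were higher and 1 lower at 4 weeks (median 0.11), and 6 were higher and 48 lower at 4.5 weeks (median -0.26). Of 93 nuclear genes of oxidative phosphorylation, 21 were higher and 5 lower at 4 weeks (median 0.08) and 3 were higher and 77 lower at 4.5 weeks (median -0.50). In the controls the 3 kinds of list lay on the same side, with medians of -0.38 for the ribosomal protein genes, -0.24 for the mitochondrial ribosome and -0.30 for oxidative phosphorylation at 4.5 relative to 4 weeks.

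**Figure D5:**
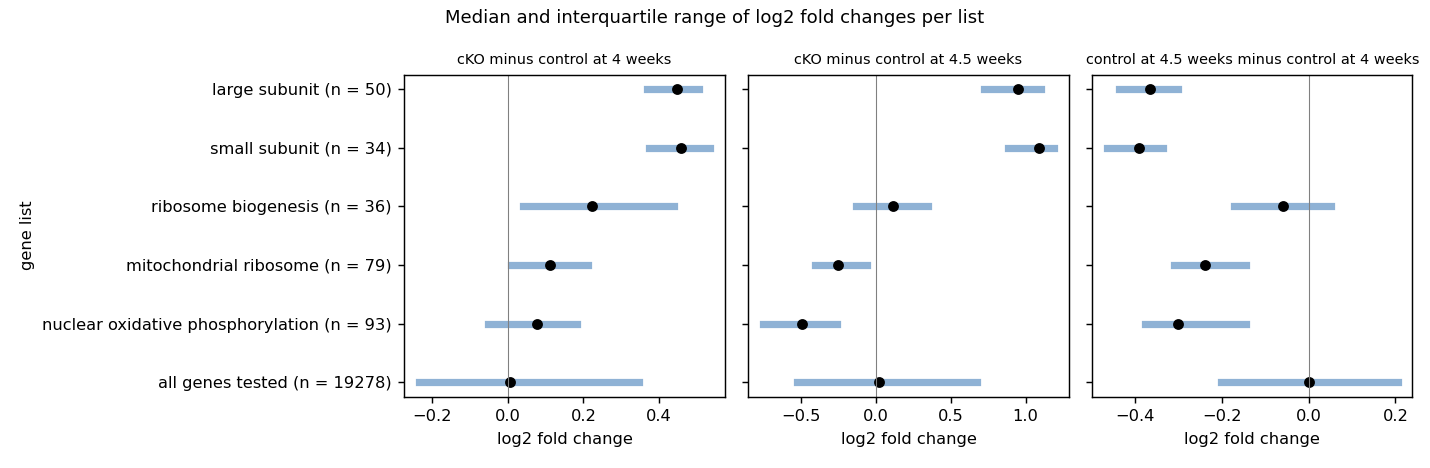
Median (point) and interquartile range (bar) of the log2 fold changes in 3 comparisons, for both ribosomal subunits, 3 other gene lists and all genes tested, with the number of genes in each. The medians of both subunits lie to the right of the others at 4 and 4.5 weeks (medians 0.45 to 1.09) and to the left of zero in the comparison of the controls.

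Of 13 genes listed for the control of ribosomal protein synthesis, 6 were higher and 1 lower at 4 weeks and 7 were higher and 2 lower at 4.5 weeks. This list counts Mdm2 and Trp53, genes of the p53 pathway, which were higher at both times. Among all genes, 20.1% were higher and 17.2% lower at 4 weeks, and 33.3% and 32.6% at 4.5 weeks. Mdm2, the ubiquitin ligase of p53, had 173, 215 and 206 CPM in cKO and 37.1, 39.0 and 40.5 CPM in control libraries at 4 weeks (log2 fold change 2.35, adjusted p 1.71e-09) and 1.87 at 4.5 weeks. Trp53, which encodes p53, had 1.35 at each time, and Eif4ebp1, a translation repressor that mTOR inactivates, 2.49 and 3.30. Mtor itself was lower at both times (-0.44 and -0.92), and Larp1, which binds the TOP motif, was lower at 4.5 weeks (-0.38, adjusted p 0.000812).

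Markers of several cell types also differed between cKO and control cords. Their counts stand beside 20.1% of all genes called higher and 17.2% lower at 4 weeks, and 33.3% and 32.6% at 4.5 weeks. Microglia and macrophage markers summed to 1511 to 2631 CPM in cKO and 570 to 585 CPM in control libraries at 4 weeks, and to 9244 to 9990 CPM in cKO and 491 to 525 CPM in control libraries at 4.5 weeks. Of the 14 rows of these markers, 13 were higher at 4 weeks and 14 at 4.5 weeks. Of 9 markers of proliferating cells, 9 were higher at 4 weeks and 8 at 4.5 weeks. Oligodendrocyte markers summed to 14900 to 19800 CPM in cKO and 32130 to 34810 CPM in control libraries at 4 weeks and to 10900 to 11680 CPM in cKO and 28310 to 29360 CPM in control libraries at 4.5 weeks, with 10 of 10 and 9 of 10 lower. Of 9 neuron markers, 3 were lower at 4 weeks and 9 at 4.5 weeks. Of 8 astrocyte markers, 6 were lower and 1 higher at 4 weeks (median log2 fold change -0.99) and 6 lower and 2 higher at 4.5 weeks (-0.58). Of 5 blood markers, 0 were called at 4 weeks, 5 were lower in cKO at 4.5 weeks (median -3.79) and 4 were lower in controls at 4.5 than at 4 weeks (-1.96). Within the cKO group of 4 weeks, library 1 had the lowest microglial sum, 1511 CPM against 2631 and 2539 CPM, and was also lowest for 73 members, while library 3, highest for 64 members, had a lower microglial sum than library 2. The part of these shifts in the level of the ribosomal protein genes was not tested.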

How the data were processed

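Poly(A) libraries of 12 mouse spinal cords were sequenced, with 3 animals per group per the labels' protocols, so p-values measure the spread between animals. The kit does not mark strand. The authors deposited estimated counts per gene, neither scaled nor normalised, in 1 table for each time. The submitters' processing notes name STAR, RSEM and mm39; versions and the annotation release are not given in the sources used here. A symbol was missing for 6753 rows, and 27 symbols turned into dates were restored from the gene identifiers.

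Counts were rounded and tested in R 4.3.3 with edgeR 4.0.16: 19278 genes passed its filter on low counts, library sizes were scaled with TMM, and 1 model held a mean for each of the 4 groups. Each contrast was tested with the quasi-likelihood F test, Benjamini-Hochberg adjusted over all genes tested, and called at an adjusted p below 0.05. The script was tested on simulated data. CPM values are scaled unless said otherwise, and log2 fold changes carry 1 standard error. Alternatives used DESeq2 1.42.0, limma 3.58.1 (voom), other scalings and filters, a replicate block, a sex term, a length trend (lengths from GENCODE M21) and libraries left out. Folds of gene sums are ratios of mean percent shares of counts. Figures were drawn with matplotlib 3.10.9. Promoter sequences came from RefSeq (GRCm38.p6). No genome sequence and no protein sequences were used here.

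The members, the other lists and the rule on which genes to name were all chosen with earlier results of these data known. The rule took the paralog pairs, the 4 largest changes in each direction per contrast, members not called or called against the rest where those were 5 or fewer, the stalk genes, genes of Mdm2 binding and of Diamond-Blackfan anaemia, the 2 members of each subunit with the highest mean CPM, Ddx20, Fau, Rack1 and up to 3 members of each other list. Other members named (Rpl6l, Rpl7a, Rpl12, Rpl27a, Rpl32, Rpl37, Rps15a and Rps21) and Larp1, Nop56 at 4 weeks and Tsr2 were chosen after their values were seen. Not every gene the rule took is reported here.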

Additional observations from a re-analysis of the deposited data

Results flagged for a closer look

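The cKO effect differed between the times for these named members, by edgeR's test of the difference of the effects (log2 fold change at 4.5 weeks minus that at 4 weeks, adjusted over all genes tested). Each of these differences was positive, so the cKO effect was the larger one at 4.5 weeks. A positive difference does not mean a higher level in the later cKO libraries, because the controls of that time were lower. From 4 to 4.5 weeks in cKO, Rps15 (-0.12), Rpl41 (-0.14), Rpl26 (-0.10), Rps19 (-0.05) and Rpl11 (-0.03) had values below 0. The other members listed here had values above 0, and these changes were not tested. In the large subunit they were Rpl10 (1.02), Rpl10a (0.974), Rplp0 (0.927), Rpl23 (0.738), Rpl5 (0.736), Rpl39 (0.719), Rpl36a (0.643), Rpl7 (0.608), Rplp2 (0.566), Rpl35a (0.562), Rpl41 (0.502), Rplp1 (0.463), Rpl7l1 (0.38), Rpl26 (0.338), Rpl11 (0.337), Rpl4 (0.329) and Rpl22 (0.281). In the small subunit they were Rps12 (0.977), Rps10 (0.776), Rps4x (0.761), Rps24 (0.688), Rps27 (0.647), Rps3a2 (0.635), Rps26 (0.549), Rps7 (0.514), Rpsa (0.492), Rps3a1 (0.49), Rps15 (0.477) and Rps19 (0.339). The 2 times differ in sex makeup as well. The controls of 4 weeks were male and all libraries of 4.5 weeks female. Of the cKO libraries of 4 weeks, libraries 1 and 2 were female and library 3 male.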

How the results depend on the processing

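Leaving out 1 library at a time gave 77 to 82 members higher in cKO at 4 weeks and 82 to 82 at 4.5 weeks, with 0 to 0 lower at either time. It gave 71 to 77 with a larger effect at 4.5 weeks and 0 to 0 with a smaller one, and 62 to 78 lower and 0 to 0 higher in controls at 4.5 weeks. Of the 19672 to 19878 genes then tested, 3071 to 3998 were higher in cKO at 4 weeks and 5948 to 6615 at 4.5 weeks. The difference of the effects was called positive for 3162 to 3723 genes, and 522 to 1888 were lower in the later controls. The cKO to control ratio of count shares then ranged from 1.38 to 1.48 at 4 weeks and 2.01 to 2.09 at 4.5 weeks for the large subunit, and from 1.40 to 1.51 and 2.13 to 2.19 for the small one. Where a group kept 2 libraries, its spread was taken from all groups. The replicate numbers do not pair the samples (correlations of same-numbered deviations from -0.165 to 0.205), and with a replicate block 81 members were higher at 4 weeks, 82 at 4.5 weeks, 75 had a larger effect at 4.5 weeks and 71 were lower in the later controls. Over all 19278 genes, the block gave 3624 higher at 4 weeks and 6294 at 4.5 weeks. In that fit 3461 genes had a positive difference of the effects and 1161 were lower in the later controls.

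Restricted to the 17 members with whole counts, the counts were 16 at 4 weeks, 16 at 4.5 weeks, 14 for the difference and 14 lower in the later controls, and the share ratios at 4.5 weeks were 1.89 for the large and 1.92 for the small subunit; fewer members enter by construction. A sex term left 1 member with a smaller effect at 4.5 weeks and 0 lower in the later controls, where the length trend left 31. Over all genes these 3 counts were 3303, 0 and 464. The cause was not tested. Without control libraries 1 and 2 of 4.5 weeks the later controls have 1 library, so no count of calls is given for that fit. Rps15 at 4 weeks reversed to -0.0124 with the length trend removed. For the named genes, 967 of the values at 4 weeks kept their direction and side of the threshold under the alternatives, 12 lost the call and 4 gained it. At 4.5 weeks 981 kept theirs and 3, all of Ddx20, lost the call. For the difference of the effects 919 kept theirs, 13 lost and 11 gained the call, and between the controls 804 kept theirs, 125 lost and 14 gained it. Depth limits only the lowest members, Rpl6l and Rps3a2.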
